A study of Mus musculus with 6 samples.

Results

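The genes described here are MYC, its partner MAX and 44 further genes of ribosome synthesis and polyamine synthesis, 46 of the 23203 loci in the deposited table. They were chosen by name: a locus was taken where one of its gene symbols equalled a listed symbol, and each of the 46 symbols matched 1 locus that carries no other gene name. All 46 had a mean of at least 1 FPKM (sequenced fragments scaled for transcript length and library size) over the 6 libraries and were tested together with all other such loci, 10228 in total. By step, 2 of them are MYC and MAX, 2 act in polyamine synthesis, 7 in transcription by RNA polymerase I, 9 in small nucleolar ribonucleoproteins (snoRNPs), 14 in maturation of the large (60S) subunit and 9 in that of the small (40S) subunit. Nucleolin and nucleophosmin (2 genes) act in several steps, and Ipo4 encodes a nuclear import receptor.

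The libraries come from mouse naive CD4 T cells that were activated for 48 h with anti-CD3e bound to the plate (10 µg/ml) and anti-CD28 (1 µg/ml) in TGFb1 (2.5 ng/ml), IL-23 (10 ng/ml) and IL-6 (20 ng/ml), which drives them to become Th17 cells, the helper T cells that make IL-17. One group of 3 libraries received the vehicle DMSO, and the other group of 3 received 2-deoxyglucose (2DG) at 250 µM, a glucose analogue used to block glycolysis, which was itself not measured. The labels name no strain, age or number of animals and leave out whether replicates are independent cultures, so each p-value reflects the spread among these libraries only, and that spread may be technical. Both groups carried RNA of the labelled cells: Il17a was listed at 235 to 267 FPKM with vehicle and rose to 574 to 706 FPKM with 2DG (limma adjusted p = 0.00315), and Cd4 was at 91.7 to 107.5 and 82.3 to 101 FPKM. Of the CD8 T cell markers, Cd8a stayed at or under 0.593 FPKM and Cd8b1 was at 2.68 to 4.92 FPKM over all libraries. Of 3 marker lists for B, myeloid and NK cells, 1 gene (Lyz2) reached the mean of 1 FPKM; Klrb1c and Klra8 were listed at 0 in every library. The table holds no read counts, so the depth of each library is unknown. In bulk RNA fewer cells that express a gene and less of its RNA per cell cannot be told apart.

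MYC is a transcription factor that binds DNA with MAX at E-boxes, and activated T cells induce it as they grow. It is known for raising the genes that build ribosomes. In that process RNA polymerase I copies ribosomal DNA into a long precursor in the nucleolus, snoRNPs place chemical marks on the precursor, and assembly factors cut and fold it into the 60S and 40S subunits. Polyamines, which bind RNA, are made by the products of Odc1 and Srm, both known MYC targets. How much of this programme differs between cultures with and without 2DG is the comparison made here.

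CACGTG, a site that MYC and MAX are known to bind, was searched for in the promoter windows of the genes. RefSeq windows on GRCm38.p6 (250 bases before to 50 bases after each start) were at hand for 38 of the 46. Bop1, Fbl, Gnl2, Myc, Npm1, Rrp12, Rrs1 and Srm had none and were not searched. The motif reads the same on both strands. It stood in a window of 11 of these 38 genes (28.9%), of 16 of 87 other ribosome synthesis genes (18.4%), of 934 of 7368 genes at tested loci (12.7%) and of 2187 of all 27025 genes in the table (8.09%). The 11 were Max, Rrn3, Mybbp1a, Nop2, Pes1, Nle1, Utp18, Utp20, Tsr1, Wdr43 and Ipo4. In Rrn3, Nop2 and Utp18 it lay wholly before the start, and these stretches are shown as examples of the site, 5′ to 3′ on the strand of the gene with the motif in capitals. They are Rrn3 at chr16:13780464-13780509 (plus strand, motif centre 212 bases before the start) and at chr16:13780631-13780676 (45 bases before), Nop2 at chr6:125131803-125131848 (plus strand, 57 bases before) and Utp18 at chr11:93885767-93885806 (minus strand, 17 bases before, cut at the start).
Rrn3, distal site: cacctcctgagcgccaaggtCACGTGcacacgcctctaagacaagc
Rrn3, proximal site: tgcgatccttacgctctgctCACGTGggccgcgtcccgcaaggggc
Nop2: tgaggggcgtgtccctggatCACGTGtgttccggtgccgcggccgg
Utp18: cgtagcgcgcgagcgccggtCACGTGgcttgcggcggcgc

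None of the 46 genes passed the test in either direction. Tests were made with limma on log2(FPKM + 1), so each log2 difference given is on that scale and is 2DG minus vehicle, and a gene passes where its Benjamini-Hochberg adjusted p over all 10228 tested loci is under 0.05. Over all tested loci 1.53% were called higher and 1.19% lower with 2DG. The smallest adjusted p of the 46 was 0.0635 (limma), for Polr1a. At an unadjusted p under 0.05 by limma, 3 of the 46 (6.52%) were higher, against 9.07% of all tested loci, and 0 were lower, against 8.82%. The counts of called genes were also 0 under the 16 other settings of the analysis.

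In the test described above, the intervals were narrow enough to bound the differences among these libraries, and those given here are from that test only. With equal sums of FPKM the interval of Polr1a was wider. Its log2 difference was 0.36 there, but 0 of the 46 genes reached an unadjusted p under 0.05 (limma). The 95% interval of the fold change lay within 1.5-fold either way for 45 of the 46 genes, with Rrp1b as the exception (0.984 to 1.53-fold), against 74.2% of all tested loci. It lay within 1.2-fold either way for 12 of them, against 11.0% of loci. An estimated difference of at least 1.2-fold was seen for 2 of the 46 (4.35%), Polr1a and Rrp1b, against 22.7% of tested loci. The median absolute log2 difference was 0.0969 for the 46 and 0.130 for all tested loci. Among the 6169 tested loci at or above the level of the lowest of the 46, it was 0.119. The 46 are well expressed, with a median level of 54.3 FPKM that exceeds 83.6% of tested loci. Their median SE of the log2 difference was 0.0934, against 0.118 for all tested loci and 0.103 for the 6169. The interval shares above are against all tested loci and were not matched for level.

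**Figure D1:**
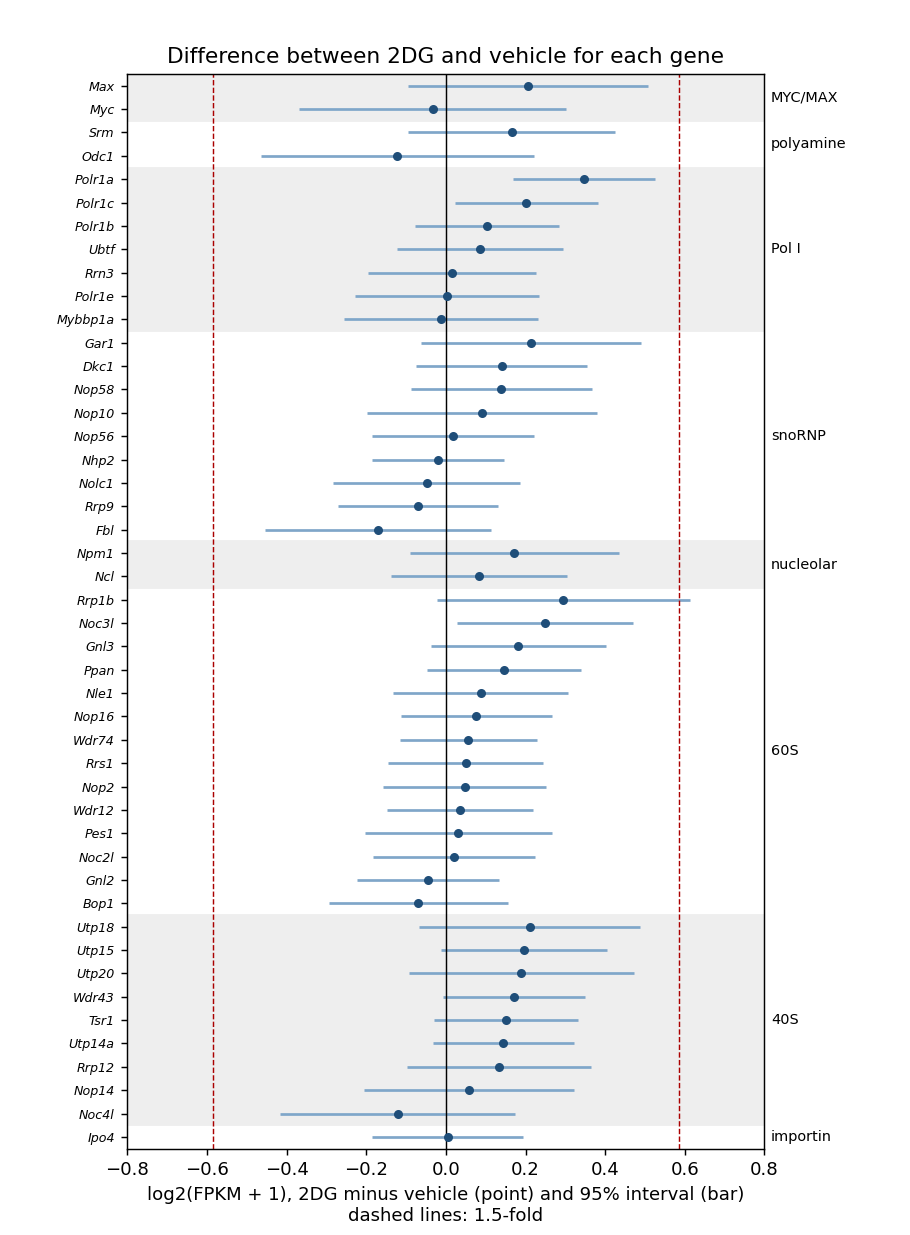
Log2(FPKM + 1), 2DG minus vehicle, for each of the 46 genes, grouped by step (points, with limma 95% intervals as bars; 3 libraries per group; dashed lines mark 1.5-fold). Only the interval of Rrp1b crosses a dashed line, and 3 intervals (Polr1a, Polr1c, Noc3l) do not reach 0.

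Small differences leaned towards higher levels with 2DG. The estimate was above 0 for 36 of the 46 (78.3%), against 47.9% of tested loci, and the median log2 difference was 0.08, against -0.01. The groups did not overlap, with all 2DG libraries above all vehicle libraries, for 9 of the 46 (19.6%): Max, Polr1a, Polr1c, Gnl3, Ppan, Noc3l, Utp14a, Wdr43 and Tsr1. Among tested loci that share was 11.9%. The reverse, with all 2DG libraries below, was seen for 0 of the 46 and for 11.8% of tested loci. Vehicle replicate 1 was the low library: 42 of the 46 genes lay below their own 6-library mean in it. The median deviation of the 46 was -0.12 there on the log2 scale, against -0.04 in vehicle replicate 2 and 0.04 in vehicle replicate 3, while the 2DG libraries lay between 0.04 and 0.05. Over all tested loci the median deviation of vehicle replicate 1 was -0.03. Without vehicle replicate 1, 30 of the 46 estimates were above 0 and their median was 0.05, against -0.02 over all tested loci. With replicates 2 and 3 only, 27 were above 0 with a median of 0.03, against -0.02 over all tested loci. The replicate 1 libraries of both groups also held the ribosomal RNA precursor locus Rn45s at 12874 FPKM (vehicle) and 7186 FPKM (2DG), while it was listed at 0 in the other 4. The part of this locus in the results was not tested, and its values allow no statement on the output of RNA polymerase I.

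**Figure D2:**
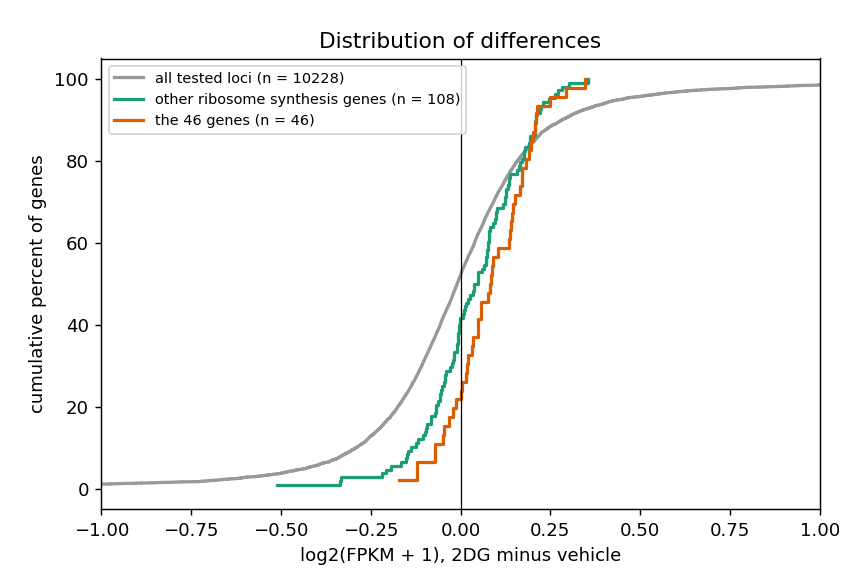
Cumulative percent of genes (vertical axis) by log2(FPKM + 1) difference, 2DG minus vehicle (horizontal axis, shown from -1 to 1), for the 46 genes, 108 other ribosome synthesis genes and all 10228 tested loci. The curve of the 46 is steeper than that of all loci, runs from -0.17 to 0.35 and has its median at 0.08.

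Myc itself did not differ beyond the spread between libraries. In replicate order, as for all genes below, it was listed at 47.5, 62.0 and 62.1 FPKM with vehicle, and in 2DG at 54.8, 64.2 and 48.5 FPKM (locus XLOC_006714, chromosome 15, 61985391 to 61990374, GRCm38). The groups overlapped over nearly their whole range, with vehicle replicate 1 and 2DG replicate 3 as the low libraries. The means were 57.2 ± 8.40 and 55.8 ± 7.91 FPKM (SD, n = 3 each), and the log2 difference was -0.03 ± 0.14 (SE, limma adjusted p = 0.935). Its 95% interval ran from 0.774 to 1.23-fold. The estimate changed sign with the library left out: it was -0.16 without vehicle replicate 1 and 0.06 without 2DG replicate 3.

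Max encodes the protein that MYC needs to bind DNA (chromosome 12, 76937269 to 76962201). It was listed at 21.0, 28.4 and 29.2 FPKM without 2DG and 31.1, 29.4 and 29.8 FPKM with it. The groups did not overlap, but vehicle replicates 2 and 3 lay close under the 2DG libraries and vehicle replicate 1 stood well below. The log2 difference was 0.21 ± 0.13 (SE, limma adjusted p = 0.466), and 0.06 without vehicle replicate 1 (adjusted p = 0.738).

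The polyamine genes did not pass either. Odc1, for the ornithine decarboxylase that opens the pathway (chromosome 12, 17544794 to 17551505), was at 183, 138 and 132 FPKM in the vehicle libraries against 133, 124 and 156 FPKM in the 2DG libraries. Vehicle replicate 1 was the highest library and the rest overlapped (log2 difference -0.12 ± 0.15, SE; limma adjusted p = 0.718). The estimate was 0.02 without that library. Srm, for spermidine synthase (chromosome 4, 148591503 to 148594993), was at 58.0, 61.3 and 74.1 FPKM with vehicle, and in 2DG at 75.3, 74.8 and 66.3 FPKM. Its 2DG replicate 3 lay within the vehicle range, and the log2 difference was 0.17 ± 0.11 (SE, limma adjusted p = 0.4996).

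In the RNA polymerase I step the gene of the largest subunit gave the clearest separation. Polr1a, which encodes the catalytic subunit (locus XLOC_016619, chromosome 6, 71909053 to 71984935), was listed at 20.3, 20.8 and 22.7 FPKM without 2DG and 27.7, 26.6 and 27.6 FPKM with it. All 2DG libraries were above all vehicle libraries, and the gap between the groups exceeded the spread within either. The means were 21.3 ± 1.26 and 27.3 ± 0.624 FPKM (SD, n = 3 each). The log2 difference was 0.35 ± 0.08 (SE), with a 95% interval of 1.12 to 1.44-fold, and the unadjusted p was 0.00238 by limma. The adjusted p of 0.0635 missed the threshold. Over the 16 other settings its log2 difference ran from 0.31 to 0.39 and its adjusted p from 0.0526 (minimum mean of 5 FPKM) to 0.603 (equal sums).

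The other genes of that step differed less. Polr1c, for a subunit that polymerases I and III share (chromosome 17, 46243920 to 46248054), was at 105, 102 and 93.6 FPKM in the vehicle libraries against 112, 120 and 115 FPKM in the 2DG libraries. Its groups did not overlap, and the log2 difference was 0.20 ± 0.08 (SE, limma adjusted p = 0.227). Polr1b, for the second largest subunit, was at 31.5, 33.7 and 34.7 FPKM with vehicle, and in 2DG at 37.7, 34.1 and 35.7 FPKM, where 2DG replicate 2 lay inside the vehicle range. Its log2 difference was 0.10 ± 0.08 (SE, limma adjusted p = 0.547). Polr1e, for a polymerase I specific subunit, had the lowest level of the step, 11.6 to 13.8 FPKM over all libraries, and a log2 difference of 0.00. Of the factors that recruit or regulate the polymerase, Rrn3 (initiation factor TIF-IA) differed by 0.02, Ubtf (the ribosomal DNA binding factor UBF) by 0.09 and Mybbp1a (a nucleolar regulator of transcription) by -0.01. Ubtf spread little with 2DG, between 60.1 and 60.9 FPKM, and between 50.7 and 60.9 FPKM with vehicle. The median over the 7 genes was 0.09, and 0.00 without vehicle replicate 1.

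**Figure D3:**
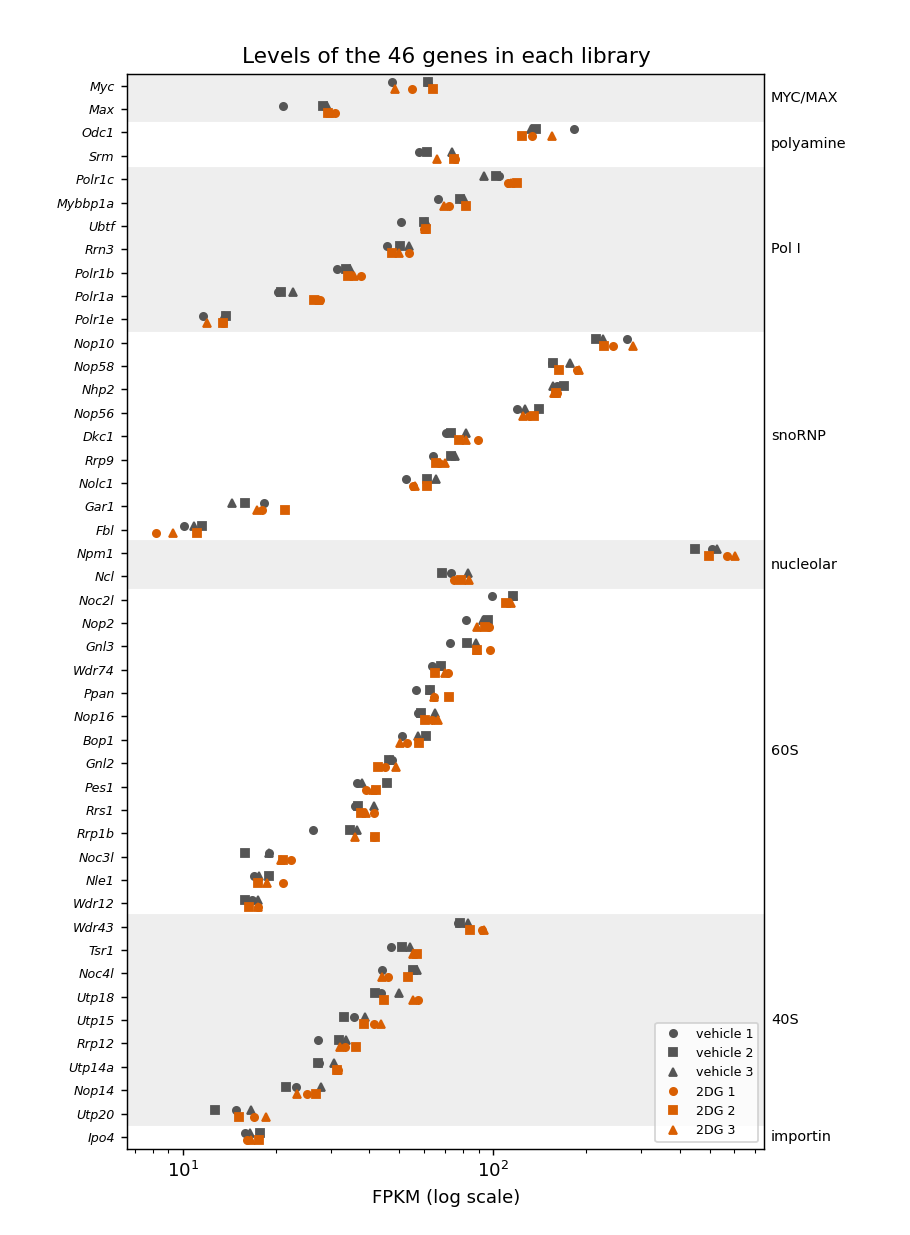
FPKM of each of the 46 genes in each library (log axis; grey for vehicle, orange for 2DG; circle, square and triangle for replicates 1, 2 and 3), grouped by step and ordered by level. Levels ran from 10.2 FPKM for Fbl to 526 FPKM for Npm1, and the spread between genes was far wider than that between libraries.

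The 9 snoRNP genes differed in both directions, with 5 estimates above 0 and 4 below (-0.17 to 0.21), and the groups overlapped for all 9. Their median log2 difference was 0.02, and -0.03 without vehicle replicate 1. Nop58 encodes a core protein of the box C/D snoRNPs, the particles that carry out ribose methylation. It was at 155, 156 and 178 FPKM without 2DG and 187, 163 and 190 FPKM with it, an overlap of the middle values (log2 difference 0.14 ± 0.10, SE, limma adjusted p = 0.518). Its partner Nop56 was at 120 to 141 FPKM in vehicle against 125 to 136 FPKM in 2DG. Fbl, for the methyltransferase fibrillarin, was at 10.1, 11.6 and 10.9 FPKM in the vehicle libraries against 8.23, 11.2 and 9.29 FPKM in the 2DG libraries, and its log2 difference of -0.17 was the lowest of the 46 (limma adjusted p = 0.524). On this per-length scale Fbl was thus listed far below its partners in every library, at 8.23 to 11.6 FPKM against 120 to 190 FPKM for Nop56 and Nop58. The annotation and settings behind the values were not given, so such a gap between genes may not be one of RNA amount. This was not tested.

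The genes of the box H/ACA proteins, which make pseudouridine, also differed widely in listed FPKM. Nop10 was at 215 to 284 FPKM over all 6 libraries, Nhp2 at 156 to 170, Dkc1 at 70.4 to 89.4 and Gar1 at 14.4 to 21.4. Dkc1, for the pseudouridine synthase dyskerin (chromosome X, 75095854 to 75109777), was at 70.4, 73.3 and 82.1 FPKM with vehicle, and in 2DG at 89.4, 77.6 and 82.1 FPKM. Vehicle replicate 3 and 2DG replicate 3 were equal to the digits shown, and the log2 difference was 0.14 ± 0.09 (SE, limma adjusted p = 0.490). Gar1 was at 18.3, 15.9 and 14.4 FPKM without 2DG and 18.1, 21.4 and 17.4 FPKM with it (log2 difference 0.21 ± 0.12, SE; limma adjusted p = 0.402), with vehicle replicate 1 inside the 2DG range. Nhp2 had the narrowest interval of the 46, 0.879 to 1.11-fold. Nolc1, a snoRNP chaperone gene, and Rrp9, for a protein of the U3 snoRNP, differed by -0.05 and -0.07.

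The nucleophosmin and nucleolin genes did not differ beyond their spread. Npm1, for nucleophosmin, had the highest level of the 46 and was at 508, 448 and 528 FPKM in the vehicle libraries against 570, 499 and 606 FPKM in the 2DG libraries (chromosome 11, 33152287 to 33163206). 2DG replicate 2 lay between the vehicle values, and the log2 difference was 0.17 ± 0.11 (SE, limma adjusted p = 0.489). Ncl, for nucleolin, was at 73.5, 68.5 and 83.1 FPKM with vehicle, and in 2DG at 75.1, 79.2 and 83.9 FPKM (log2 difference 0.08 ± 0.09, SE; limma adjusted p = 0.703).

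Of the 14 genes of 60S maturation, 12 estimates were above 0 and 3 had groups that did not overlap, with a median log2 difference of 0.05. The median was 0.03 without vehicle replicate 1 and 0.00 with replicates 2 and 3 only. Noc3l, for a protein of the nucleolar complex that escorts 60S precursors (chromosome 19, 38788128 to 38819237), was at 18.9, 15.8 and 19.0 FPKM without 2DG and 22.4, 21.1 and 20.7 FPKM with it. All its 2DG libraries were higher, by 0.25 ± 0.09 on the log2 scale (SE, limma adjusted p = 0.227). Rrp1b, for a nucleolar protein, had the widest interval of the step: it was at 26.3, 34.5 and 36.5 FPKM in the vehicle libraries against 41.5, 41.8 and 35.9 FPKM in the 2DG libraries. Its vehicle replicate 1 was the low library, and 2DG replicate 3 lay within the vehicle range (log2 difference 0.29 ± 0.13, SE; limma adjusted p = 0.309). With replicates 2 and 3 only the log2 difference of Rrp1b was 0.12. Gnl3, for the GTPase nucleostemin (chromosome 14, 31012433 to 31019152), was at 72.9, 82.7 and 88.0 FPKM with vehicle, and in 2DG at 98.2, 88.8 and 89.1 FPKM. The groups did not overlap, but vehicle replicate 3 lay within 1 FPKM of 2DG replicate 2 (log2 difference 0.18 ± 0.09, SE; limma adjusted p = 0.368).

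The 3 genes of the PeBoW complex, whose proteins act together in 60S maturation, gave log2 differences close to 0. They were -0.07 for Bop1, 0.03 for Pes1 and 0.03 for Wdr12. Ppan was the third gene of the step whose groups did not overlap, at 56.8 to 62.8 FPKM in vehicle against 64.8 to 72.3 FPKM in 2DG (log2 difference 0.15). The remaining genes were Nop2, Nop16, Gnl2, Wdr74, Rrs1, Noc2l and Nle1, with log2 differences between -0.05 (Gnl2) and 0.09 (Nle1). Gnl2, for a nucleolar GTPase, spread little in vehicle, between 46.4 and 47.2 FPKM, and was at 42.6 to 48.8 FPKM with 2DG.

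The 40S genes had the highest median of the 4 larger steps, 0.15 over 9 genes, with 8 estimates above 0. Wdr43, for a subunit of the U3-associated complex UTP-A (chromosome 17, 71615895 to 71659031), was at 77.3, 78.4 and 83.2 FPKM without 2DG and 92.0, 84.3 and 93.5 FPKM with it. The groups did not overlap, although vehicle replicate 3 and 2DG replicate 2 lay close together (log2 difference 0.17 ± 0.08, SE; limma adjusted p = 0.294). Utp15, for another subunit of that complex, was at 35.7, 33.0 and 38.7 FPKM in the vehicle libraries against 41.4, 38.4 and 43.6 FPKM in the 2DG libraries. Only vehicle replicate 3 and 2DG replicate 2 crossed (log2 difference 0.20 ± 0.09, SE; limma adjusted p = 0.306). Tsr1, for a late factor of 40S assembly (chromosome 11, 74898071 to 74909342), was at 46.9, 50.8 and 54.0 FPKM with vehicle, and in 2DG at 56.3, 56.8 and 55.4 FPKM. The 2DG libraries were tightly grouped above the vehicle libraries (log2 difference 0.15 ± 0.08, SE; limma adjusted p = 0.364).

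The other genes of the small subunit were Utp14a, Utp18, Utp20, Nop14, Noc4l and Rrp12. Utp14a, for a component of the small subunit processome, did not overlap, at 27.4 to 30.7 FPKM in vehicle against 31.4 to 31.8 FPKM in 2DG. Noc4l, for the partner of Nop14, was the only estimate of the step below 0 (-0.12), and Nop14 itself differed by 0.06. The step's median was 0.12 without vehicle replicate 1 and 0.12 with replicates 2 and 3 only. No difference between steps was tested. Ipo4, the importin gene, was at 15.9, 17.8 and 16.5 FPKM without 2DG and 16.1, 17.6 and 16.6 FPKM with it, with a log2 difference of 0.00 ± 0.08 (SE, limma adjusted p = 0.990).

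**Figure D4:**
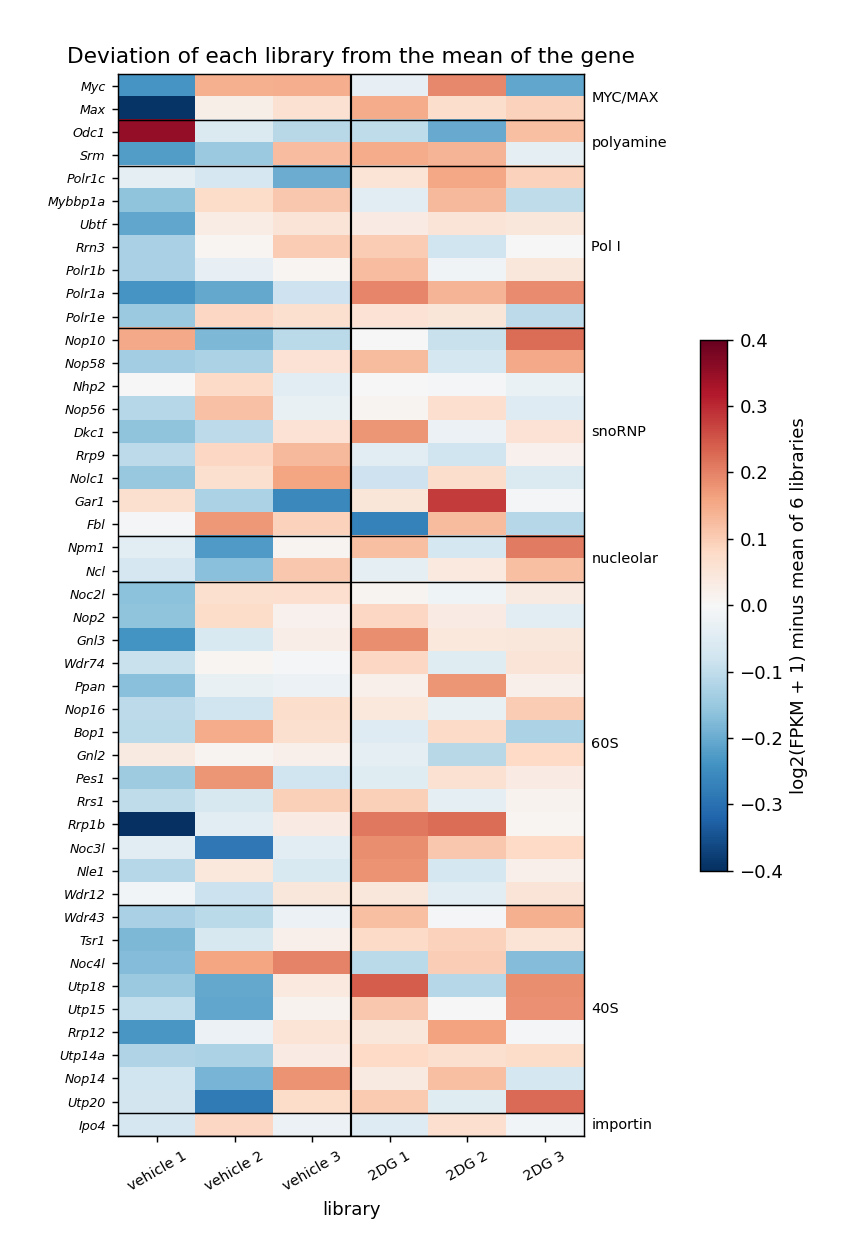
Log2(FPKM + 1) of each library (columns) minus the mean of the 6 libraries for each of the 46 genes (rows, grouped by step); colours are capped at 0.4 either way. The vehicle replicate 1 column is mostly blue (42 of 46 genes below their mean), and the 40S rows are mostly red in the 2DG columns.

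Replicate numbers 1, 2 and 3 carry the numbers 17, 42 and 43 in both groups' sample titles, with no word on what they mark. Taken by number, the median log2 difference of the 46 genes was 0.18 for 17, 0.05 for 42 and 0.02 for 43, against 0.01, -0.02 and -0.01 over all tested loci. The RNA polymerase I genes had medians of 0.23, 0.02 and -0.01, and the 60S genes 0.18, 0.00 and 0.03. For the snoRNP genes they were 0.06, 0.00 and 0.00, and for the 40S genes 0.21, 0.18 and 0.04. The largest medians of these 4 steps thus lay in number 17, which holds vehicle replicate 1. For 18 of the 46 genes 2DG was higher in all 3 numbers (Polr1a by 0.43, 0.34 and 0.27, for example), against 20.4% of tested loci, and Fbl was the 1 gene lower in all 3, against 22.3% of loci. Myc differed by 0.20, 0.05 and -0.35.

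Some features not used in choosing the genes were compared with their differences, as a description. Over the 46 genes the log2 difference correlated with the GC content of the transcript at Pearson r = -0.36 (Spearman -0.36) and with log2 transcript length at 0.31 (Spearman 0.21), where the points share the same 6 libraries. Over the 10147 tested loci with a value, GC content gave -0.08 (Spearman -0.19) and length 0.03 (Spearman 0.09). Within numbers 17, 42 and 43 the Pearson correlation with length over the 46 was 0.30, 0.28 and 0.04. That with GC content was -0.15, -0.25 and -0.35. With trends in GC content and length removed, the median of the 46 was 0.09 and 0 of them passed. The 11 genes with an E-box in a promoter window, such as those of Rrn3, Nop2 and Utp18 shown above, had a median log2 difference of 0.09 (range -0.01 to 0.21). The 27 matched genes without one in a window, Odc1 and Ncl among them, had a median of 0.09 (range -0.12 to 0.35). Sites outside the windows were not searched, so these groups do not separate genes with a MYC site from genes without one. These letters say nothing of whether MYC was bound.

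Further genes of the same pathway, from lists of names taken from their known roles, also gave no call: 0 of 153 tested loci in 8 lists passed in either direction (limma), and at an unadjusted p under 0.05, 12 were higher (7.84%) and 7 lower (4.58%), against 9.07% and 8.82% of all tested loci. Ribosome synthesis genes beyond the 46 (15 of polymerase I, 11 of snoRNP assembly, 36 of 60S and 46 of 40S maturation) had a median log2 difference of 0.04, with 63 of 108 above 0. The genes of smallest p in these 4 lists were Polr2k, for a subunit shared by the polymerases, at 8.34, 7.84 and 8.27 FPKM in the vehicle libraries against 4.56, 5.58 and 6.24 FPKM in the 2DG libraries (limma adjusted p = 0.0741), Snu13, Nmd3 and Nob1. Snu13, for a protein that binds box C/D RNAs, was at 16.8, 17.7 and 18.9 FPKM in vehicle against 19.6, 20.3 and 20.8 FPKM in 2DG (log2 difference 0.18, limma adjusted p = 0.294). Nmd3, for the export adaptor of the 60S subunit, was at 43.1, 38.2 and 43.2 FPKM in vehicle against 52.8, 45.5 and 48.2 FPKM in 2DG (log2 difference 0.23, limma adjusted p = 0.239). The groups overlapped for neither. Nob1, for the nuclease that makes the last cut of the 18S ribosomal RNA, was at 36.2, 37.0 and 41.7 FPKM with vehicle. In 2DG it was at 48.8, 51.3 and 47.4 FPKM, with no overlap (log2 difference 0.35, limma adjusted p = 0.0741). Among 16 MYC targets outside ribosome synthesis, Tfap4, a transcription factor gene that MYC induces in T cells, had the smallest p, with 11.6, 11.4 and 12.6 FPKM against 14.9, 14.9 and 16.7 FPKM (log2 difference 0.36 ± 0.09, SE; limma adjusted p = 0.0843).

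In the list of other MYC network genes 8 of 10 were tested, while Mycn and Mycl stayed at or under 0.116 FPKM in every library. Estimates were above 0 for 4 of the 8 and below 0 for 4, with a median log2 difference of 0.01. Mxd1, for a MAX partner that opposes MYC, was at 21.8, 31.0 and 22.7 FPKM without 2DG and 15.1, 17.4 and 13.6 FPKM with it, a log2 difference of -0.67 ± 0.15 (SE, limma adjusted p = 0.0737). Mxi1, a second gene of that family named after its values were seen, was at 16.9, 21.4 and 19.2 FPKM and 11.2, 14.8 and 13.5 FPKM (log2 difference -0.51, limma adjusted p = 0.0925). All 2DG libraries lay below all vehicle libraries for both. Mxd4 and Mxd3, of the same family, had log2 differences of 0.35 and 0.07 (limma adjusted p = 0.4895 and 0.791), both with groups that overlapped. In the polyamine list Smox, for spermine oxidase, was at 75.2, 71.7 and 57.4 FPKM in the vehicle libraries against 28.8, 45.6 and 38.8 FPKM in the 2DG libraries (log2 difference -0.85 ± 0.18, SE; limma adjusted p = 0.0573). Of 10 host genes of small nucleolar RNAs, Snhg6 was at 130, 121 and 131 FPKM with vehicle, and in 2DG at 186, 161 and 166 FPKM (log2 difference 0.42 ± 0.08, SE; limma adjusted p = 0.0525). Mxd1, Smox and Snhg6 passed with robust variance estimation, without small RNA genes and after the GC and length correction (lowest adjusted p 0.0359, 0.0222 and 0.0296), and in none of the other 13 settings (highest adjusted p 0.222, 0.218 and 0.582).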

How the data were processed

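RNA was sequenced in 3 vehicle and 3 2DG libraries. The authors deposited 1 table of FPKM values per locus and library. The submitters' processing notes name mm10, Cuffnorm 2.2.1.1, TopHat2 2.1.0, Cuffdiff 2.2.1.3 and Cufflinks 2.2.1.0. Settings, annotation, strand and scaling were not given in the sources used here, and the unit is inferred from the tools and the values. FPKM are estimates and not counts, so limma 3.58.1 (R 4.3.3; lmFit, eBayes with trend, group as the only term) was run on log2(FPKM + 1) for loci whose mean reached 1 FPKM, with two-sided p-values adjusted by Benjamini-Hochberg over all tested loci (threshold 0.05). An exact permutation test of 1 gene in this design (3 against 3) cannot give a p below 0.1. The code was tested on simulated data. Alternatives changed the pseudocount, filter, scaling, block, variance estimation or libraries. The 46 genes, the lists and the tests were chosen with earlier results of these data known. Values in each library are given for Myc, Max, Odc1, Srm and the 3 genes of smallest p per step, and for the gene of smallest p in each further list; others serve as examples. Gene coordinates are from GENCODE M21 (GRCm38, which mm10 denotes), and transcript length and GC content are medians over its basic protein-coding transcripts. Figures used matplotlib 3.10.9 in Python 3.11.15.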

Additional observations from a re-analysis of the deposited data

How the results depend on the processing

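None of the 46 genes was called under the 13 planned and 3 added alternatives. The added ones, chosen after seeing the data, were leaving out small RNA genes, replicates 2 and 3 only, and the GC and length correction. At an unadjusted p under 0.05 the alternatives gave 0 to 6 of the 46 higher and 0 to 1 lower (limma), and their median log2 difference stayed between 0.03 and 0.13. Of 304 values of the 19 genes that the naming rule picks, 9 had the other sign, all uncalled and all in Myc, Odc1 and Ipo4. Calls over all tested loci (156 higher and 122 lower) moved more. Without a filter 100 were higher and 65 lower, and the counts were 95 and 62 with equal sums of FPKM, 247 and 199 with robust variance estimation, 262 and 214 without small RNA genes, 43 and 28 with replicates 2 and 3 only, 231 and 189 with the GC and length correction, and 52 to 98 higher and 25 to 69 lower with 1 library left out. With the number in the titles as a replicate block they were 57 and 44. Deviations of same-numbered libraries correlated at -0.05 (17), 0.19 (42) and -0.11 (43) over tested loci, which does not establish a pairing, and only those of number 42 correlated best with their own number. The libraries of number 17 share the Rn45s values and the lowest sums of FPKM (1469420 and 1471759, against 1808447 to 1958739). The cause of these moves was not tested. Groups of 3 are too small for a check of single outlying libraries, and without read counts the counting error of low genes is unknown.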
